A study of Mus musculus with 63 samples.

Results

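Myelin and oligodendrocyte genes were followed through every RNA library of a mouse series on the long noncoding RNA Chaserr and the chromatin remodeller gene Chd2. The 9 genes were taken by name, whatever their values: Mbp, Mog, Mag, Mobp, Cnp, Mal, Olig1, Olig2 and Sox10. All 9 were found among the 24990 gene rows of the tables, which list the same genes in each of 47 libraries. The level of each gene in adult brain was examined per replicate and per library kit, then its change in heterozygous brain, and then its levels in embryos at embryonic days E9.5 and E13.5.

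The study asked what the loss of Chaserr, which lies upstream of Chd2, does to Chd2 and to gene expression. Wild type (WT) animals were compared with Chaserr+/- (Het) animals, which carry on 1 allele a CRISPR/Cas9 deletion of the Chaserr promoter and first exon, from founder lines used interchangeably. Per the study's methods the founders came from CB6F1 mice and were later crossed to a C57BL/6 line, and mice of several generations were used, so the background can be mixed. The brains are labelled adult, and the methods give only a range of weeks for all mice. Whole E9.5 embryos, whole E13.5 embryos and adult brain were each sequenced from 3 WT and 3 Het libraries. Mouse embryonic fibroblasts (mEFs) were derived from E13.5 embryos without head and liver, and gave 12 WT and 11 mutant libraries of the genotypes Chaserr+/-, Chaserr-/-, Chaserr-/- Chd2 m/m and, without a Chaserr deletion, Chd2 m/m, where m is a frameshifting deletion in a coding exon of Chd2. A further 6 libraries came from RNA immunoprecipitation (RIP), in which RNA is recovered with an antibody: 2 with antibody to CHD2, 2 with control IgG and 2 of input. The embryo libraries were made with the TruSeq kit. In the brain, replicate 3 of each genotype was made with TruSeq and replicates 1 and 2 with the Lexogen SENSE kit, so the kit and those samples cannot be told apart.

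The libraries held 21589962 to 31293072 counts at E9.5, 24875751 to 29806490 at E13.5, 13956040 to 33192002 in brain, 9672637 to 16983416 in mEFs and 7621335 to 20050508 in RIP. In brain, the mean Chd2 level was higher in Het (18.9 TPM) than in WT (9.35 TPM), and that of Chaserr lower (17.6 against 33.0 TPM), each in the direction of the labels. The RIP libraries are labelled Neuro2a, a mouse neuroblastoma line, and the values went against that label. The input libraries held Mbp at 404 to 515 TPM, the choroid plexus gene Ttr at 1376 to 1956 TPM, the glutamatergic neuron gene Slc17a7 at 166 to 222 TPM and the astrocyte gene Gfap at 21.3 to 31.2 TPM. They are called the libraries labelled Neuro2a below. Among mEFs, the 5 libraries of the set made to study Chd2 m/m stood apart, with Ttr at 22.3 to 55.3 TPM and Slc17a7 at 2.68 to 5.75 TPM, against at most 8.16 and 0.50 TPM in the other 18. The study describes the Chaserr-/- mEFs as derived independently and the mEFs for ATAC-seq as taken from separate embryos, and the labels place the WT mEFs of some sets in the pregnancy of their mutants. For the other groups nothing in the labels says that replicates are separate animals, so p-values there measure the spread between these samples only, which may be technical.

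Myelin is the lipid-rich sheath that oligodendrocytes wrap around axons in the brain and spinal cord, and that Schwann cells make in peripheral nerves. Oligodendrocytes arise from precursors specified by the transcription factors Olig1 and Olig2, and Sox10, which is also used by the neural crest and Schwann cells, drives their maturation and the expression of myelin genes. Mbp and Mobp encode basic proteins that compact the membrane layers, Mog and Mag encode surface proteins of the outer and inner faces of the sheath, Cnp encodes an enzyme of the cytoplasmic channels, and Mal encodes a proteolipid of lipid rafts.

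The genes lie on separate chromosomes, apart from Olig1 and Olig2. In the mm9 build, Mobp lies at chr9:120058860-120090602 (plus), Cnp at chr11:100436218-100453043 (plus), Mog at chr17:37147691-37160343 (minus), Mag at chr7:31684202-31699851 (minus), Mal at chr2:127458962-127482431 (minus) and Sox10 at chr15:78985343-78994920 (minus). Olig2 (chr16:91225795-91228922, plus) and Olig1 (chr16:91270014-91272184, plus) are neighbours, and Olig1 is the shortest of the 9 genes, at 2171 bases. Mbp, described with its transcripts below, is the longest, at 110492 bases.

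Promoter sequence was held in the RefSeq table (build GRCm38.p6) for 6 of the 9 genes, Cnp, Mag, Mal, Mobp, Mog and Olig2, and not for Mbp, Olig1 and Sox10. Shown here are the 250 bases before the start of 3 genes that differed in the data below. Cnp was expressed in every library and had open chromatin at its start in mEFs. Olig2 was listed at or near 0 in mEFs. Mobp ranged from 0 counts in Het E13.5 embryos to 236 TPM or more in brain. Cnp is at chr11:100574689-100574938, Mobp at chr9:120149492-120149741 and Olig2 at chr16:91225300-91225549, all on the plus strand and written 5′ to 3′. Capitals mark ACAAAG or its reverse complement CTTTGT, the core recognised by SOX proteins. They also mark TATAAA, the consensus letters of a TATA box, at any position, read on the gene's strand.
Cnp: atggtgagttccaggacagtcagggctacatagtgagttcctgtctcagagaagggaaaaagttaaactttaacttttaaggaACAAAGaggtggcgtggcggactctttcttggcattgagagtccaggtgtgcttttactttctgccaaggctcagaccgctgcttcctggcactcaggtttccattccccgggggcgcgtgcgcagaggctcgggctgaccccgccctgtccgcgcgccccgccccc
Mobp: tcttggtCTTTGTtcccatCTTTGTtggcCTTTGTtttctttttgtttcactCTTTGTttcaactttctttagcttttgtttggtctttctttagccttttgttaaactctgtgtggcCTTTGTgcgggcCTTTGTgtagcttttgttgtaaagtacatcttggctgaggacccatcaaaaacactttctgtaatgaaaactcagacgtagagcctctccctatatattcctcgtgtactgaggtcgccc
Olig2: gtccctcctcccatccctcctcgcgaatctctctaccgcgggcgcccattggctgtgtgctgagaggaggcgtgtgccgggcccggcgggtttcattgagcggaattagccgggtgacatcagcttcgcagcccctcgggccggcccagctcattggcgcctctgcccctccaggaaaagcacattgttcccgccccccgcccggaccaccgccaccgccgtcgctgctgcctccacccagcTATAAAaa
Over the 300 base windows of the table (250 before and 50 after the start), ACAAAG or CTTTGT occurred in 18.7% of 32851 windows and TATAAA in 8.32%. The Cnp window held ACAAAG once, at position -167 from the start. The Mobp window held 6 matches, all as CTTTGT, between positions -243 and -120, and it was the only 1 of the 32851 windows with at least 6. That cut-off was taken from the Mobp count itself, so the Mobp window passes it by construction. The Olig2 window held TATAAA at position -8 and 25 CG dinucleotides, against a median of 7 over all windows, while the Mobp window held 5. CAGCTG, a palindromic E-box, was also searched for, occurred in 16.3% of all windows and was in none of the 8 windows of the 6 genes. None of these motifs overlap in these windows, and a match is a description of the letters only.

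In adult brain all 9 genes were expressed, over a wide range of TPM, RSEM's abundance scaled to transcript length and library total, which can be compared between genes. Mbp stood at 4502, 5118 and 8974 TPM in WT replicates 1 to 3, and at 5162, 3777 and 3647 TPM in Het replicates 1 to 3. By its mean level it ranked 11 among the 24990 rows in the 4 SENSE libraries and 1 in the 2 TruSeq libraries. Its highest library was therefore the WT TruSeq library and its lowest the Het TruSeq library.

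The other structural genes came next. Mobp stood at 858, 1001 and 515 TPM in WT and at 808, 605 and 236 TPM in Het, lowest in the TruSeq library of each genotype. Cnp stood at 368, 493 and 797 TPM in WT and at 374, 249 and 451 TPM in Het, highest in the TruSeq library of each genotype. So Mobp and Cnp changed places between the kits, with ranks of 161 and 417 in the SENSE libraries and of 450 and 236 in the TruSeq libraries. Mal stood at 263, 348 and 562 TPM in WT and at 275, 242 and 217 TPM in Het. Mog stood at 243, 283 and 311 TPM in WT and at 256, 134 and 116 TPM in Het. Mal and Mog therefore overlapped between genotypes through Het replicate 1, which lay within the WT values for both. Mag stood at 184, 214 and 325 TPM in WT and at 159, 105 and 145 TPM in Het, and was the only 1 of the 9 genes whose 3 Het libraries all lay below the 3 WT libraries on both the TPM and the CPM scale.

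The transcription factors were lower in level. Olig1 stood at 179.9, 178 and 165 TPM in WT and at 162, 109 and 128 TPM in Het, so that its Het libraries were all below the WT libraries in TPM, though not in normalised counts. Sox10 stood at 63.0, 57.2 and 52.7 TPM in WT and at 57.8, 56.4 and 46.4 TPM in Het, with overlapping groups. Olig2 was the lowest, at 36.9, 29.4 and 27.8 TPM in WT and at 35.6, 23.0 and 18.7 TPM in Het, and ranked 4960 in the SENSE and 6758 in the TruSeq libraries. In the order of mean level, Mal and Mog overlap in their ranges over the 6 libraries, and so do Mag and Olig1.

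**Figure D1:**
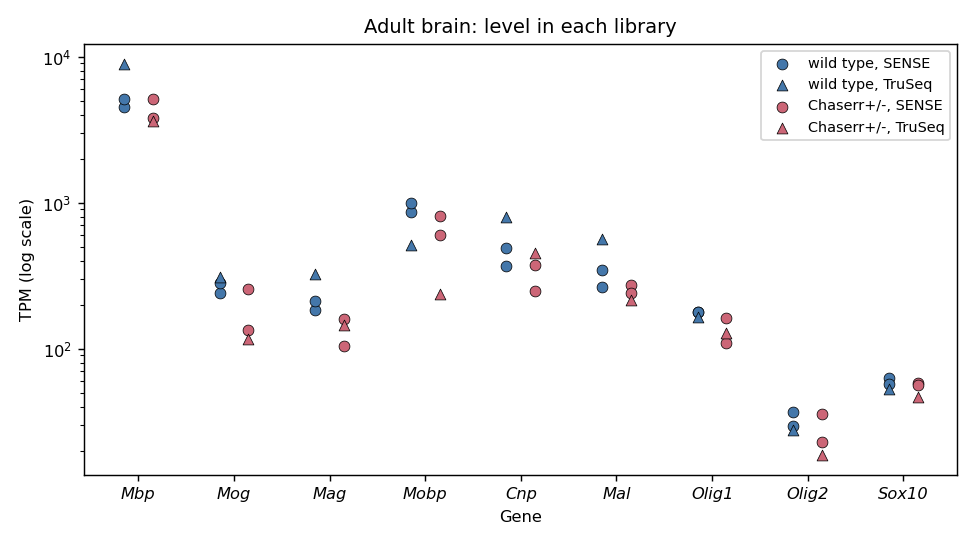
Level of each of the 9 genes in the 6 adult brain libraries, on a log TPM axis, with genotype and kit marked per point. Mbp sits between 3647 and 8974 TPM and Olig2 between 18.7 and 36.9 TPM, and Mobp is lower in the TruSeq libraries of each genotype than in the SENSE libraries.

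The kits were compared across all 6 brain libraries with genotype as a term. The test was edgeR's quasi-likelihood test over 15304 genes, with p adjusted after Benjamini and Hochberg. Of the 9 genes, 4 differed between kits, against 47.5% of all genes tested. Mobp was lower in TruSeq by a log2 fold change of -1.09 ± 0.19 (SE, adjusted p = 0.00249), from 847 ± 197 CPM (normalised counts scaled to the library total, SD, n = 4) to 422 ± 233 CPM (n = 2). Olig2 (-0.61 ± 0.20, adjusted p = 0.0366) and Sox10 (-0.41 ± 0.11, adjusted p = 0.0130) were lower, and Cnp was higher (0.58 ± 0.19, adjusted p = 0.0368). Mobp and Sox10 had no overlap between kits, as was so for 57.2% of all genes, while Cnp and Olig2 did overlap. The values for Mbp (0.17 ± 0.25), Mal (0.18 ± 0.25), Mag (0.26 ± 0.20), Olig1 (-0.28 ± 0.15) and Mog (-0.40 ± 0.29) did not pass the test. Without the genotype term 2 of the 9 genes were called, against 42.7% of all genes. The call of Mobp held with each library left out, while that of Cnp was lost without any 1 of 5 libraries, all but Het replicate 1 (adjusted p up to 0.269), that of Olig2 without WT replicate 1, Het replicate 1 or Het replicate 3 (up to 0.282), and that of Sox10 without Het replicate 3 (0.109). Mbp and Mal were called without Het replicate 3 (adjusted p = 0.0182 and 0.0227), Mag without Het replicate 1 (0.0367) and Olig1 without Het replicate 2 (0.0210).

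In heterozygous brain no member passed the test, and all 9 had a lower mean than in WT. In edgeR's quasi-likelihood test over 14911 genes, 0% of all genes and 0 of the 9 were called at an adjusted p under 0.05. At an unadjusted p under 0.05 there were 368 genes, of which 2 were members, and DESeq2 called 1 gene, which was not a member. Fold changes below are Het over WT on the log2 CPM scale, and the adjusted p was 0.9997 for each of the 9. In RNA from whole tissue, fewer cells of a type and less RNA per cell cannot be told apart.

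Mag had the lowest fold change, -0.82 ± 0.25 (SE, unadjusted p = 0.0123). Mag and Mal, at -0.66 ± 0.28 (unadjusted p = 0.0493), were the 2 members under 0.05 before adjustment. Mog followed at -0.71 ± 0.34, from 203 ± 18.9 CPM (SD, n = 3) in WT to 124 ± 62.1 CPM in Het. Cnp stood at -0.65 ± 0.31, Mobp at -0.61 ± 0.43 and Mbp at -0.54 ± 0.29, the last from 5374 ± 1718 CPM to 3698 ± 921 CPM. Mag is the periaxonal glycoprotein of the sheath and Mog a protein of its outermost face, and both are minor components of myelin. The 3 transcription factors had the values nearest 0, with Olig1 at -0.40 ± 0.21, Olig2 at -0.28 ± 0.31 and Sox10 at -0.12 ± 0.20, a value that turned to 0.027 without Het replicate 3. The median of the 9 was -0.61, beside 0.01 over all genes tested. In normalised counts the Het libraries lay wholly below the WT libraries for 1 of the 9 genes, Mag, as they did for 5.11% of all genes.

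The 3 replicate numbers did not contribute alike. In the pair of replicate 1, both SENSE, 5 of the 9 genes were lower in Het, with a median ratio of TPM of 0.967 and a range from 0.863 (Mag) to 1.15 (Mbp). In the pair of replicate 2, also SENSE, 9 of 9 were lower, with a median ratio of 0.614. In the pair of replicate 3, both TruSeq, 9 of 9 were lower, with a median ratio of 0.457 and a range from 0.374 to 0.879. Genes of at least 1 TPM were lower in Het in 55.3%, 48.3% and 47.0% of cases in these pairs. The lower values thus lay in the pairs of replicates 2 and 3, while the median ratio of replicate 1 was near 1.

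Same-numbered brain libraries deviated together, which a kit difference alone can give, and the replicate number was also fitted as a block. With the block, 6 of the 9 members had an unadjusted p under 0.05 and 0 were called, beside 2005 genes under 0.05 and 1 called among all. With the kit as a covariate the members' counts were the same, 6 and 0, beside 2298 genes under 0.05 and 0 called among all 15304. In the 4 SENSE libraries alone the median of the 9 was -0.40, with Mag at -0.60 ± 0.19, Mobp at -0.47 ± 0.16 and Mbp at -0.11 ± 0.16. Leaving out replicate 3 therefore moved the fitted change of Mbp towards 0, while all 9 values stayed negative.

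**Figure D2:**
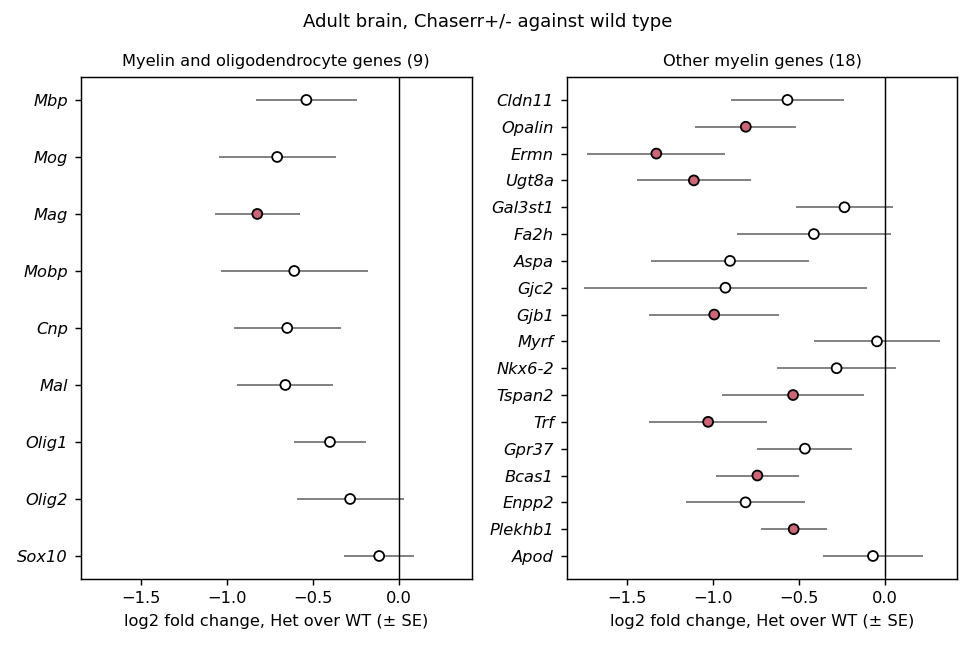
Fold change of Het over WT in adult brain on the log2 scale, with bars of 1 SE (n = 3 libraries a genotype), for the 9 genes and for 18 other myelin genes, and filled points where all Het libraries lay below all WT libraries. All 9 and all 18 points lie below 0, and the filled points are Mag among the 9 and 8 of the other 18, beside 5.11% of all genes.

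A list of 18 other myelin genes gave the same picture of lower means with no call. The list was chosen with earlier results of these data known and was read in the same brain libraries. Its median was -0.65, and 18 of 18 values were negative. An unadjusted p under 0.05 was found for 7, beside 368 of all 14911 genes tested. Het libraries lay wholly below WT for 8, beside 5.11% of all genes. These 8 were Opalin, Ermn, Ugt8a, Gjb1, Tspan2, Trf, Bcas1 and Plekhb1. Ermn, which encodes a cytoskeletal protein of myelinating oligodendrocytes, had the lowest value, -1.33 ± 0.40 (unadjusted p = 0.0127). Ugt8a, the enzyme that makes galactosylceramide, stood at -1.11 ± 0.33 (unadjusted p = 0.0122). Myrf, the transcription factor that switches on myelin genes, stood at -0.05 ± 0.36. In the 4 SENSE libraries alone 15 of the 18 were negative, with a median of -0.31.

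The list of 8 oligodendrocyte precursor genes had a median of -0.19, with 7 of 8 negative. Pdgfra, the growth factor receptor of precursors, stood at -0.16 ± 0.20, and Nkx2-2 at -0.46 ± 0.33. None of the 8 was under 0.05 before adjustment. Markers of other cell types in the same brains went in both directions. All 7 astrocyte genes (median -0.28) and all 7 microglia genes (median -0.31) were negative, with 0 of 14 under 0.05 before adjustment. The 3 choroid plexus genes were negative, Ttr at -0.49 ± 0.25, Folr1 at -0.72 ± 0.42 and Kl at -1.10 ± 0.31 (unadjusted p = 0.00976). The endothelial genes Cldn5 (0.39 ± 0.28) and Pecam1 (0.31 ± 0.52) were above 0. Of the fibroblast genes 3 of 5 were above 0 (median 0.10), as were 5 of 8 Schwann and neural crest genes (median 0.08), and 10 neuron genes had a median of -0.04. The summed level of the 18 other myelin genes was 2776 to 3592 TPM in WT and 1585 to 2448 TPM in Het, that of astrocyte genes 1483 to 2119 against 1121 to 1789 TPM, that of microglia genes 362 to 501 against 255 to 455 TPM, and that of endothelium and choroid plexus genes, most of it Ttr, 1948 to 3028 against 1410 to 2060 TPM. The part of these lists in the members' values was not tested.

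Whole WT embryos were compared between E9.5 and E13.5. Mag, Olig1, Cnp and Mal rose, Olig2 and Sox10 fell, and Mog and Mobp were too low for the test at E13.5, while Mbp did not pass it. In WT embryos, 6 of the 7 members tested were called, against 80.4% of all 15761 genes, so a call at these stages does not set the members apart.

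Olig1 stood at 0.40, 0.40 and 0.32 TPM in the 3 E9.5 WT libraries and at 3.50, 2.66 and 2.38 TPM in the E13.5 WT libraries, with a log2 fold change of 2.67 ± 0.25 (SE, adjusted p = 6.26e-06). Mag stood at 0.06, 0.16 and 0.22 TPM and then at 1.82, 0.85 and 0.93 TPM (2.72 ± 0.47, adjusted p = 0.000459). Both genes were near their detection limit at E9.5, with 9 to 11 counts of Olig1 and 2 to 7 of Mag per library. Cnp was already present, at 7.71, 8.18 and 9.10 TPM, and reached 23.4, 25.5 and 24.0 TPM (1.30 ± 0.083, adjusted p = 4.60e-07). Mal lay between 0.96 and 1.25 TPM at E9.5 and between 1.81 and 2.69 TPM at E13.5 (0.81 ± 0.21, adjusted p = 0.00499). In these 4 genes the stages did not overlap, as was so for 82.8% of all genes.

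Olig2 moved the other way from its neighbour Olig1. It stood at 7.70, 6.60 and 6.58 TPM at E9.5 and at 4.18, 2.65 and 3.8 TPM at E13.5 in WT (-1.23 ± 0.17, adjusted p = 0.000100). At E9.5 the mean level of Olig2 (6.96 TPM) was above that of Olig1 (0.373 TPM), while in WT brain the mean of Olig1 (174 TPM) was above that of Olig2 (31.3 TPM). Sox10 was at 18.04, 21.0 and 16.3 TPM at E9.5 and at 18.4, 17.0 and 19.3 TPM at E13.5, overlapping in TPM. On normalised counts it fell by 0.27 ± 0.11 on the log2 scale (adjusted p = 0.0400), a call that was lost without replicate 1 or replicate 2 of either stage (adjusted p from 0.0646 to 0.125). Mbp had a mean of 7.34 ± 0.76 TPM (SD, n = 3) at E9.5 and 11.4 ± 0.26 TPM at E13.5. Its stages did not overlap in TPM, at 6.85 to 8.22 against 11.1 to 11.6. Its normalised counts differed by 0.20 ± 0.083 on the log2 scale (adjusted p = 0.0528, and 0.0174 without E9.5 WT replicate 3). Sox10, which has the same transcript length in every library, also differed between the scales, with means of 18.4 TPM at E9.5 and 18.2 TPM at E13.5. The part of transcript length, given below, in the distance between the scales for Mbp was not tested.

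The structural genes Mog and Mobp had hardly any counts at E13.5. Mog had 0 counts in all 6 E9.5 libraries, which allows up to 3 counts over each group of 3, and had 2 counts in WT and 1 in Het over the 3 libraries at E13.5. Mobp had 9 to 19 counts per WT library at E9.5 and 44 in all, but 2 in all at E13.5, a ratio of E9.5 to E13.5 of 21.4 per count sequenced (95% interval 5.58 to 182, counting error only). In Het embryos Mobp had 30 counts at E9.5 and 0 at E13.5, at least 10.6-fold lower with 3 counts over the group as the floor. Without the filter on low counts Mobp was called lower at E13.5 in each genotype, with an adjusted p of 0.000295 in WT and 0.000846 in Het. Mobp thus was higher in the earlier embryo and highest in brain.

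The Het embryos, which share no library with the WT comparison, gave 5 calls among the 7 members tested, against 74.5% of all genes. Mag (1.85 ± 0.34, adjusted p = 0.00188), Cnp (0.91 ± 0.094, adjusted p = 0.000107) and Olig1 (3.32 ± 0.71, adjusted p = 0.00402) rose. Olig2 (-1.23 ± 0.23, adjusted p = 0.00206) and Sox10 (-0.52 ± 0.16, adjusted p = 0.0202) fell, the latter not called without E13.5 Het replicate 3 (adjusted p = 0.0797). Mal (0.43 ± 0.23) and Mbp (0.27 ± 0.14) did not pass the test, though Mal did without E13.5 Het replicate 1 (adjusted p = 0.0230). The difference between genotypes in the change with stage, tested as an interaction, was called for 0 of 8 members and 0.0124% of all genes by edgeR, and for 0 members by DESeq2. Cnp alone was under 0.05 before adjustment, at -0.37 ± 0.12 (edgeR, adjusted p = 0.963).

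**Figure D3:**
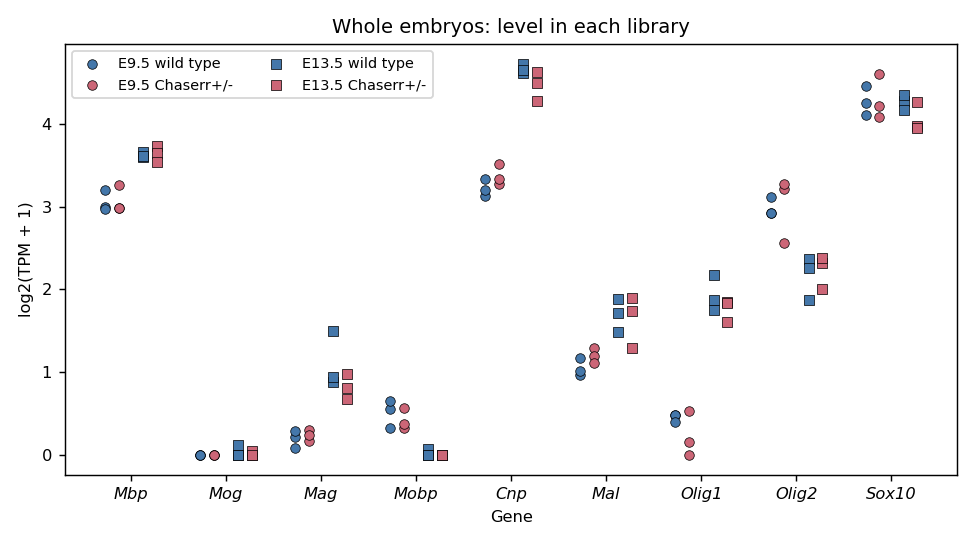
Level of the 9 genes in the 12 whole embryo libraries as log2(TPM + 1), by stage and genotype, with 1 point per library. Cnp, Mag, Olig1 and Mbp are higher at E13.5 in TPM, Olig2 is lower, and Mog stays at or near 0 in every library.

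Within a stage no member was called between the genotypes. At E9.5 edgeR called 0 of 7 members and 0% of all genes, with 0 members at an unadjusted p under 0.05 and 0 called by DESeq2. At E13.5 it called 0 of 7 members and 0.0314% of all genes, again with 0 members under 0.05 and 0 by DESeq2. The members' fold changes of Het over WT ranged from -0.87 ± 0.77 (Olig1, 0.392 against 0.205 CPM) to 0.31 ± 0.19 (Mal) at E9.5, and from -0.56 ± 0.35 (Mag) to 0.12 ± 0.19 (Olig2) at E13.5. Their medians were 0.07 and -0.15. In normalised counts Cnp was the only 1 of the members tested whose genotypes did not overlap, with Het above WT at E9.5, as for 5.34% of all genes, and Het below WT at E13.5, as for 7.07%, while in TPM they overlapped at each stage.

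Other genes of the lineage put these values in context. Of the 18 other myelin genes, 15 could be tested in WT embryos, of which 12 rose and 3 fell. The largest increases were those of Aspa (5.72 ± 0.76), Apod (3.16 ± 0.16) and Gpr37 (2.99 ± 0.21), and the genes that fell were Nkx6-2 (-2.82 ± 0.25), Myrf (-1.72 ± 0.080) and Tspan2 (-1.15 ± 0.13). Of 7 precursor genes tested 6 rose, led by Gpr17 (3.39 ± 0.16), Lhfpl3 (2.57 ± 0.35) and Cspg4 (2.48 ± 0.21), with Pdgfra at 0.84 ± 0.056, and Nkx2-2 fell (-0.71 ± 0.25). Schwann cells share Mbp, Mag, Mal, Cnp and Sox10 with oligodendrocytes, and 7 of 10 Schwann and neural crest genes rose and 2 fell in the same embryos. Ngfr, a neurotrophin receptor of immature Schwann cells, rose by 1.67 ± 0.096 on the log2 scale, and Pmp22, a protein of peripheral myelin, by 0.72 ± 0.090. Which cells of the embryo gave the counts was not tested.

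Adult brain exceeded the E13.5 embryo for all 9 genes. In WT, 9 of 9 were called higher in brain, against 35.2% of all genes called higher and 71.1% called in either direction. Sox10 had the smallest change, 1.81 ± 0.14 on the log2 scale, from 22.6 ± 1.5 CPM (SD, n = 3) to 78.9 ± 10.4 CPM, with an adjusted p of 3.21e-05. Olig2 stood at 3.29 ± 0.24, Cnp at 4.67 ± 0.29, Olig1 at 6.08 ± 0.20, Mal at 7.56 ± 0.35, Mag at 7.78 ± 0.39 and Mbp at 8.21 ± 0.32. Among the 3 transcription factors the value of Olig1 was above those of Olig2 and Sox10. Mog and Mobp had 2 counts each over the 3 embryo libraries, and their ratios of brain to embryo were 8139 (95% interval 2253 to 67216) and 29822 (8255 to 246261), counting error only. With the only 1 WT brain library made with TruSeq set against the 3 TruSeq embryo libraries, all 9 values were again above 0, but the spread then comes from the embryos alone. All 18 other myelin genes were higher in brain (median 4.65), while 7 of 10 Schwann and neural crest genes were lower, among them Prx (-4.22 ± 0.26), which encodes periaxin of Schwann cells. Of the 8 precursor genes 6 were higher in brain and 2 lower (median 2.30), the latter being Pdgfra (-2.0 ± 0.16) and Cspg4 (-0.41 ± 0.12).

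**Figure D4:**
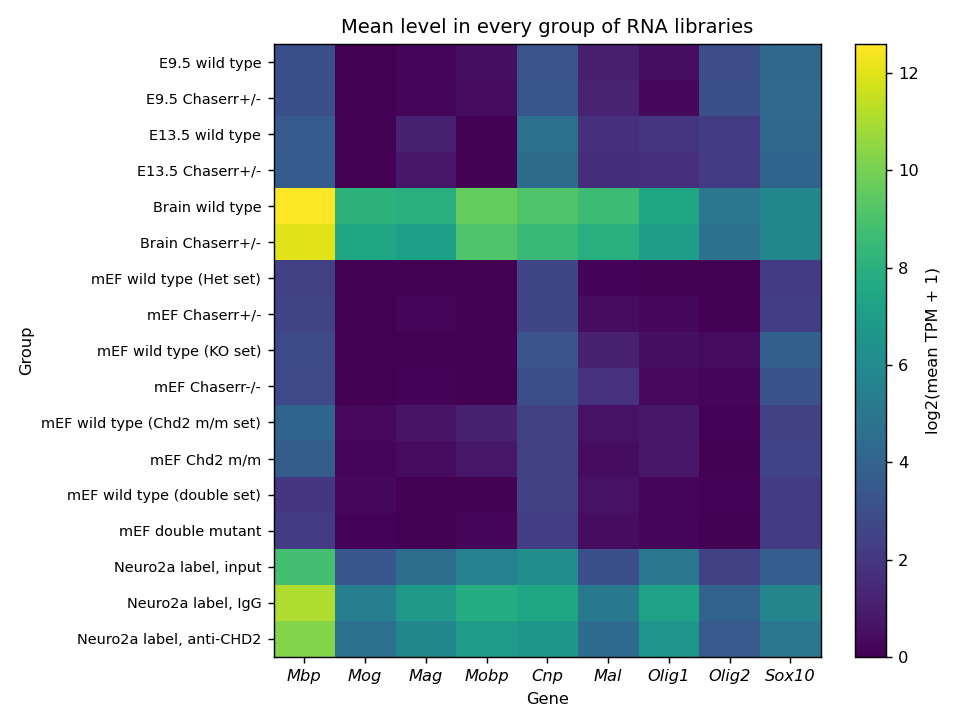
Mean level of the 9 genes in each group of RNA libraries, as log2(mean TPM + 1) in colour, with groups in rows. The brain groups and the 3 groups labelled Neuro2a carry all 9 genes, while embryo and mEF groups carry mainly Mbp, Cnp and Sox10, and Olig2 in the embryos.

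Mbp differed between sources in the length of its transcripts as well as in level. The tables give for each library a transcript length weighted by abundance. For Mbp this was 4245 to 4447 bases in the 6 E9.5 libraries, 3818 to 4121 in the 6 E13.5 libraries and 2025 to 2042 in the 6 brain libraries. The 3 ranges do not overlap, and the length in brain was less than that in any embryo. In 18 mEF libraries it was 3176 to 4535 bases, in the 5 libraries of the Chd2 m/m set 2602 to 3007 bases, and in the libraries labelled Neuro2a 2042 to 2121 bases, close to brain.

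Mbp is known for an additional, upstream start of transcription that gives the golli transcripts, which are used outside myelin, while classic Mbp starts further down the gene. The gene occupies chr18:82644538-82755029 (mm9, plus strand). In the mm9 annotation, 3 coding transcripts start in the upstream region, with spliced lengths of 1685 to 4797 bases, and 11 start at least 79317 bases further down, with lengths of 638 to 2186 bases. The weighted lengths in embryos and in the 18 mEF libraries lie above the longest transcript of the downstream start. These weighted lengths rest on the RefSeq transcripts that the authors used, while the starts come from a GENCODE annotation, so the transcript sets may differ. Cnp, by comparison, had 2333 to 2350 bases at E9.5 and 2354 to 2444 bases in brain, and Mog, Mag, Olig1, Olig2 and Sox10 have 1 length in every library. Mobp differed in length between the kits in brain. It had 2158 to 2387 bases in the SENSE libraries, and 2769 (WT) and 2716 (Het) bases in the TruSeq libraries. The part of this in its kit difference was not tested.

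**Figure D5:**
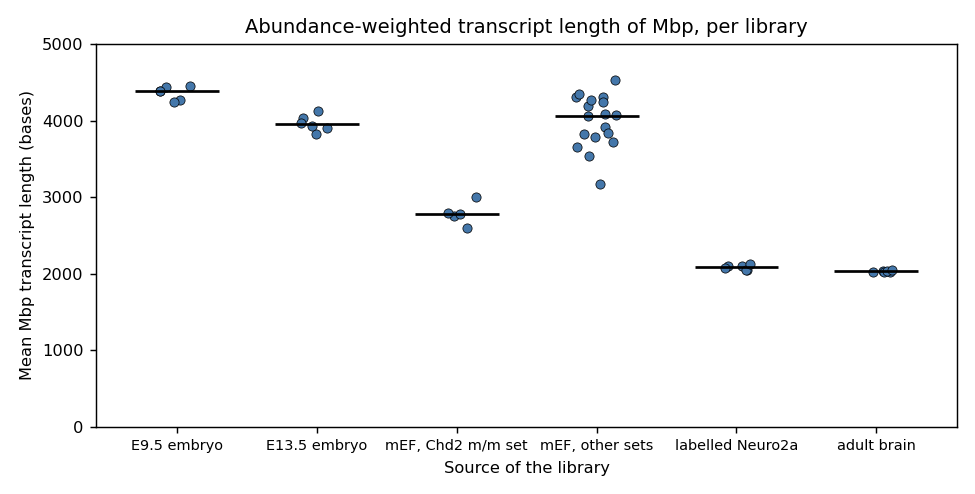
Abundance-weighted length of Mbp transcripts in bases, 1 point per library, by source. E9.5 and E13.5 embryos lie at 3818 to 4447 bases and brain at 2025 to 2042 bases, with the Chd2 m/m mEF set between them and the other mEFs mostly near the embryos.

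In mEFs, Mbp, Cnp and Sox10 were expressed at low levels and the other genes were near 0. In the 18 libraries outside the Chd2 m/m set, Mbp ranged from 2.68 to 7.14 TPM (median 4.33), Cnp from 3.60 to 10.4 TPM (median 5.16) and Sox10 from 2.70 to 16.3 TPM (median 4.24). Mog was at 0 in 14 of these 18 libraries and Mobp in 14, with at most 5 and 2.05 counts. Mal reached 3.42 TPM, Olig1 0.47 TPM, Olig2 0.32 TPM and Mag 0.22 TPM. In the 5 libraries of the Chd2 m/m set, WT and mutant alike, Mbp was at 10.9 to 19.8 TPM, Mobp at 10 to 41 counts, Mag at 5 to 24 counts and Mog at 1 to 6 counts. These are the libraries that also held Ttr and Slc17a7, as given above, and the part of other material in the members' values was not tested.

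In mutant mEFs edgeR called no member, and DESeq2 called Sox10 in Chaserr-/- mEFs. For Chaserr+/- against its WT set, edgeR called 0 of 3 members tested and 0.173% of all genes. For Chaserr-/- it called 0 of 4 and 0.118%, for Chd2 m/m 0 of 7 and 0.0145%, and for Chaserr-/- Chd2 m/m 0 of 3 and 0.0924%. At an unadjusted p under 0.05 there were 0, 2, 0 and 0 members in these comparisons, and DESeq2 called 0, 1, 0 and 0. The 2 were Sox10 and Mal in Chaserr-/- mEFs, where 33.9% of all genes had an unadjusted p under 0.05 in edgeR and DESeq2 called 14% of all genes. Sox10 stood at 16.3, 13.7 and 12.6 TPM in WT and at 5.58, 11.1 and 7.26 TPM in Chaserr-/-, with no overlap, as was so for 43.2% of all genes (-0.89 ± 0.25, adjusted p = 0.0553 in edgeR, 0.0151 without Chaserr-/- replicate 2, and 0.0100 in DESeq2). Mal stood at 1.82, 0.84 and 0.96 TPM in WT and at 3.42, 1.84 and 2.29 TPM in Chaserr-/- (0.96 ± 0.37, adjusted p = 0.107). The threshold lies between the results of the tools for Sox10, while Mal did not overlap in TPM and did in normalised counts. In the same comparison 7 of 10 Schwann and neural crest genes were negative (median -0.30) and so were all 7 microglia genes (median -0.49), with 0 called by edgeR. Their summed levels were 400 to 482 TPM in WT and 322 to 375 TPM in Chaserr-/- for the former, and 324 to 368 against 204 to 270 TPM for the latter. Their part in the values of Sox10 and Mal was not tested.

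Open chromatin was measured in mEFs by ATAC-seq, in which a transposase cuts accessible DNA, and peaks were called in each of 12 libraries, which held 18661 to 93597 peaks. A peak lay within 300 bases of an annotated start of 5 of the 9 genes in at least 1 library. Mbp, Cnp and Olig1 had one in 10 of 12 libraries and Mal in 8 of 12. The count for Mal depends on the start and window used, since its 300 base RefSeq window overlapped a peak in 1 of 12. Olig2 had one in 3 of 12, of which 2 were Chaserr-/- and 1 was Chaserr-/- Chd2 m/m, and in 0 of the 6 WT libraries. These 3 libraries held 80703, 91121 and 93597 peaks, while no WT library held more than 70516, and the part of the peak number in this difference was not tested. Mog, Mag, Mobp and Sox10 had none. Between 34.7% and 62.8% of 22372 coding genes had such a peak in each single library. The share with a peak in at least 1 library, which would match the count of 5 of the 9, was not computed. The libraries with the fewest peaks, replicate 2 of the WT libraries from the pregnancy of the Chaserr-/- Chd2 m/m mEFs (18661) and Chaserr-/- Chd2 m/m replicate 1 (28349), are the ones without a peak at Mbp, Cnp and Olig1.

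The peaks were low. Their median fold enrichment over background was 6.34 at Cnp, 6.22 at Mbp, 5.86 at Olig2, 5.63 at Olig1 and 4.85 at Mal, and 3 of the 5 genes kept a peak at a -log10 q of at least 10. Expression and peaks went together for some genes and not for others. Mbp and Cnp were expressed and had a peak in 10 of 12 libraries, while Mog, Mag and Mobp were near 0 and had none. Mal and Olig2 were low and had one in 8 and 3 of 12. Olig1 had a peak at 0 to 0.47 TPM. Sox10 was expressed without a peak within 300 bases of its start, though 1 library had one within 1000 bases. At Mbp the peak lay at the upstream start in 10 of 12 libraries and at the downstream start in 0 of 12. The Mobp promoter with its 6 CTTTGT matches had no peak in any library, and the Cnp promoter shown above overlapped a peak in 10 of 12.

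In the libraries labelled Neuro2a all 9 genes were present and had lower means with the CHD2 antibody than with IgG, of which edgeR called 0 and DESeq2 5. Mbp stood at 515 and 404 TPM in the input, at 2509 and 1909 TPM with IgG and at 1293 and 1149 TPM with the CHD2 antibody. The CHD2 libraries thus lay between the input and the IgG libraries. Olig1 followed the same order, at 32.9 and 28.8 TPM, 187 and 116 TPM, and 100.1 and 89.9 TPM. Of the 9 members 0 were called by edgeR in CHD2 against IgG, beside 11.5% of all genes. At an unadjusted p under 0.05 there were 7, beside 34.5% of all genes, and DESeq2 called 5 lower, beside 5.74% of all genes called lower. The log2 fold changes ran from -1.09 ± 0.40 (Mag, adjusted p = 0.102) to -0.73 ± 0.41 (Olig2, adjusted p = 0.234), with a median of -0.99 beside 0.02 over all genes. Without IgG replicate 2 edgeR called 8 lower, beside 19.3% of all genes. Against the input in place of IgG, 8 of the 9 had a fold change above 0 and 0 were called by edgeR, beside 15.1% of all genes, with a median of 0.82 and 1 (Olig1, 1.06 ± 0.37) at an unadjusted p under 0.05, so the direction depends on which control is used. The lower values against IgG were not particular to the members. Neuron genes (10 of 10, median -0.88), astrocyte genes (7 of 7, median -1.07) and 6 of 6 microglia genes were also below 0. So were precursor genes (8 of 8, median -0.89) and 17 of the 18 other myelin genes (median -0.97). Schwann and neural crest genes went the other way, with 7 of 8 above 0 (median 0.98).

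Across the 18 embryo and brain libraries, the pattern of each gene was set against 14734 genes with a mean of at least 1 TPM in brain, by the root mean square difference of log2(TPM + 1) after centring each gene. Mag and Mal were each other's nearest gene, at 0.236. Mog was nearest to Gpr37l1 (0.267), Cnp to Slc7a10 (0.243), Olig1 to Cmtm5 (0.226), Olig2 to Slc7a3 (0.264) and Sox10 to Vegfb (0.140). Mbp was nearest to Hpcal4 (0.502) and Mobp to Ntsr2 (0.579), at larger distances than the other 7. Stage and tissue, and in part the kit, vary together across these libraries, so the distances describe the contrast of brain with embryo more than any variation within a group.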

How the data were processed

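RNA of whole embryos, adult brain, mEFs and RIP was sequenced in 47 libraries. The deposited expected counts and TPM were estimated by the authors with RSEM against RefSeq with an edited last exon of Chaserr, and the deposited tables also give transcript lengths. The mRNA libraries were stranded, and the RIP libraries were depleted of ribosomal RNA with RiboCop. ATAC-seq reads were aligned by the authors to mm9 with Bowtie2 and peaks called per library with MACS2, whose deposited peak lists give fold enrichment and -log10 q-values. Versions are not given in the sources used here, and the labels name mm9 and mm10. Gene symbols were matched for 23823 of 24990 rows (95.3%).

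Expected counts were rounded, filtered with filterByExpr, scaled by TMM and tested with the quasi-likelihood test of edgeR 4.0.16 (R 4.3.3), with Benjamini-Hochberg adjustment over all genes tested and calls at an adjusted p under 0.05. The SE was taken as the absolute log2 fold change over the square root of F. DESeq2 1.42.0, as the study used, was an alternative, beside RLE scaling, no filter, leaving out each library, a replicate block and kit terms. The steps were tested on simulated counts. Levels are TPM as deposited, and normalised counts are CPM after TMM. Ratios of low counts carry exact 95% intervals for counting error only, with 3 counts as the floor. Some genes of the lists are not reported here and were left out of their counts. The 4C libraries were not used here, nor were fold changes of the authors' own.

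In brain, libraries of the same number deviated together over all genes (correlations of 0.437, 0.529 and 0.747), and were set side by side as pairs by number only. Number 3 also marks the kit, and a kit difference alone can give such correlations. They cannot show that the samples were paired, and no label pairs them. The members and lists were chosen with earlier results of these data known, and named genes were the 9 members, a fixed few of each list and at most the 3 largest calls per list. Locations and Mbp starts came from a GENCODE annotation of mm9, and promoters from RefSeq on GRCm38.p6.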

Additional observations from a re-analysis of the deposited data

Results flagged for a closer look

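Cnp differed between the stages in the direction of its genotype difference in normalised counts, though not in TPM, where the genotypes overlapped at each stage. On the CPM scale at E9.5 every Het library was above every WT library, with means of 10.9 CPM in Het and 9.49 CPM in WT, as was so for 5.34% of all genes. In TPM, Het replicate 1 (8.69) lay below WT replicate 3 (9.10). On the CPM scale at E13.5 every Het library was below every WT library, with means of 26.2 CPM in Het and 29.1 CPM in WT, as was so for 7.07% of all genes. In TPM, Het replicate 2 (23.6) lay above WT replicate 1 (23.4). The interaction had an unadjusted p of 0.0100 in edgeR's quasi-likelihood test, and an adjusted p of 0.963 over 16173 genes, with a log2 value of -0.37 ± 0.12 (SE). It fails the correction.

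The input libraries labelled Neuro2a, which enter no comparison with brain, held all 9 genes. Their means over 2 libraries were 459 TPM for Mbp, 71.5 TPM for Cnp, 45.9 TPM for Mobp, 30.8 TPM for Olig1, 22.8 TPM for Mag, 12.4 TPM for Sox10, 9.33 TPM for Mog, 7.32 TPM for Mal and 4.29 TPM for Olig2. The source of these transcripts was not tested.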

How the results depend on the processing

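Of 152 recomputed summary values, 142 stayed within 1.5 times of the reported one. The values are counts of genes, and many of them are counts of 0 that stayed at 0, as in Het brain. The share is therefore no measure of how stable the fold changes were. In the comparison of kits, 4 members were called, 2 without the genotype term, and 2 to 4 when a library was left out (2 without Brain_WT replicate 1). In Chaserr-/- mEFs 0 were called, 1 without the filter on low counts, 1 with DESeq2 (Sox10 in each), and 0 to 1 when a library was left out (1 without Chaserr-/- replicate 2). In CHD2 against IgG 0 were called, 1 without the filter, 5 with DESeq2 and 0 to 8 when a library was left out. With the replicate block 7 were called there, although those libraries share only a number and their deviations correlated at 0.192. Of the 5 genes with an ATAC peak, 3 remained at a -log10 q of at least 10, and all 5 with each library left out. Calls with stage ranged over 5 to 7 in WT and 5 to 7 in Het when a library was left out.

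The fold change of Sox10 in Het brain ran from -0.22 (without WT replicate 3) to 0.027 (without Het replicate 3, adjusted p = 0.965) when a library was left out, and so turned its direction. Its call with stage in WT was lost under the replicate block (-0.27, adjusted p = 0.0515), in embryos whose numbers did not pair (correlations of 0.0517, 0.235 and 0.158). Mbp gained a call with stage (0.25, adjusted p = 0.0174) without E9.5 WT replicate 3. The replicate block changed no call of a member in brain. Over all genes, Chaserr-/- mEFs gave 16 calls, 1407 without the filter and 2613 with DESeq2, and CHD2 against IgG gave 1707, with 3473 by DESeq2 and 3757 under the block. No paired analysis was possible because Chaserr-/- mEFs and their WT set share no replicate number, nor between kits. With 3 libraries a group, the SE of the members in brain was 0.20 to 0.43 on the log2 scale, and no member passed the adjustment.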
